A study of Rattus norvegicus with 3 samples.

Results

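The genes described here are 9 regulators of G-protein signalling (RGS), *Rgs2*, *Rgs3*, *Rgs4*, *Rgs5*, *Rgs10*, *Rgs12*, *Rgs14*, *Rgs16* and *Rgs19*, in tendon stem/progenitor cells (TSPCs) of the rat Achilles tendon. They were taken as the probe sets to which the platform's table gives 1 of these symbols alone, which found all 9 genes in 14 of 31042 probe sets. The 9 were chosen by their signals on the same arrays, so every difference between ages is given as a description and none is tested. TSPCs-1d, TSPCs-7d and TSPCs-56d were grown from Sprague-Dawley rats aged 1, 7 and 56 days (day 1, day 7 and day 56 here), with no treatment or genetic change, and the tendons of at least 2 animals were pooled for each culture. All cultures were polyclonal, were expanded in serum from colonies seeded at low density, and were used at passage 2. Each age has 1 array (Affymetrix Rat Genome 230 2.0), so the spread between cultures is unknown and the number of arrays limits the precision.

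RGS proteins end the signal of receptors that act through heterotrimeric G proteins. A receptor loads the alpha subunit with GTP, and the RGS domain speeds up its hydrolysis, so that the alpha subunit returns to its resting state and rejoins the beta and gamma subunits. Proteins of the R4 subfamily (*Rgs2*, *Rgs3*, *Rgs4*, *Rgs5*, *Rgs16*) act on alpha subunits of the Gi and Gq classes, and that of *Rgs2* prefers Gq. *Rgs19* belongs to the RZ subfamily, and *Rgs10*, *Rgs12* and *Rgs14* to the R12 subfamily. In fibroblasts and smooth muscle these proteins limit the response to contractile and mitogenic ligands, and several R4 genes are themselves induced by the pathways they restrain.

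The deposited values are linear signals, and the median of all signals was 110.1. A signal under 48.9, the 25th percentile of all signals, is called dim here. Where a fold involves a dim signal, 48.9 was put in its place and the fold is written as "at least". Signals of different probe sets are not comparable as amounts, so each probe set is followed across the cultures only. The median log2 ratio of all probe sets was 0.01 for TSPCs-7d over TSPCs-1d, 0.05 for TSPCs-56d over TSPCs-7d and 0.05 for TSPCs-56d over TSPCs-1d. As a guide to the noise of a ratio, both probe sets were compared for 1714 genes that had 2 above the median of mean signals, and 10% of such pairs differed in log2 ratio by more than 0.39, 0.44 and 0.53 in these comparisons. This guide covers noise within the arrays and none between cultures. It is a difference between 2 ratios, and here it is set beside single ratios. It was not measured for probe sets under that median, such as those of *Rgs5* and *Rgs14*.

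The 2 genes with the widest differences between ages were *Rgs2* and *Rgs4*, and their promoters are shown because both are lower in the older cultures and *Rgs2* is known to be induced by cAMP in several cell types. The 250 bases before the start of each gene (RefSeq, assembly GRCr8) are printed 5′ to 3′ in the direction of the gene, from chr13:58352667-58352916 on the minus strand for *Rgs2* and chr13:84475885-84476134 on the minus strand for *Rgs4*. Capitals mark matches on either strand to the core of the cAMP response element (TGACG, or CGTCA on the other strand), the CCAAT box (CCAAT or ATTGG) and the TATA box (TATAAA).
Rgs2: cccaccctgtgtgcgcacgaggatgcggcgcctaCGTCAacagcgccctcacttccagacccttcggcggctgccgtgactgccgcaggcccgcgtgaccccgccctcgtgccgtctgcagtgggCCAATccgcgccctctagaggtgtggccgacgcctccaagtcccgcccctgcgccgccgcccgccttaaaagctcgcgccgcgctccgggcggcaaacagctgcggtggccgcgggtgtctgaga
Rgs4: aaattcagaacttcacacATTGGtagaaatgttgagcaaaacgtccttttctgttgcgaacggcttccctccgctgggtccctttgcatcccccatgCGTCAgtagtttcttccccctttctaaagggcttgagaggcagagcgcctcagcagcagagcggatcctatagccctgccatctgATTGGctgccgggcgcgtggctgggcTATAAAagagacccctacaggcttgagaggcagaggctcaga

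Both windows hold 1 match to the core of the cAMP response element, whose last base lies 212 bases before the start in *Rgs2* and 149 bases before it in *Rgs4*. Over 33469 promoters of the same length, 18.2% hold this core, and 3 of the 9 genes do (*Rgs2*, *Rgs3* and *Rgs4*). The full palindrome TGACGTCA is in 1.59% of promoters and in 0 of the 9. The CCAAT box is in 34% of promoters and in 3 of the 9 (*Rgs2*, *Rgs4* and *Rgs16*). The TATA box is in 12.9% of promoters and in 2 of the 9 (*Rgs3* and *Rgs4*), and the match in *Rgs4* spans the bases 42 to 37 before the start. An AP-1 site (TGANTCA on either strand) is in 6.34% of promoters and in 1 of the 9, *Rgs12*. These are matches of letters, and binding was not measured.

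*Rgs2*, an activator of GTP hydrolysis with a preference for Gq that limits vascular contraction, was lower in each older culture. In the probe set of higher signal (1387074_at) the signals were 729 at day 1, 367 at day 7 and 196 at day 56. The other probe set (1368144_at) gave 501, 202 and 93.8 in the same order. Both probe sets therefore put the 3 cultures in the same order, highest in TSPCs-1d and lowest in TSPCs-56d. TSPCs-7d had 1.99-fold and 2.48-fold less than TSPCs-1d in the 2 probe sets, on either side of the 2-fold cutoff. TSPCs-56d had 1.87-fold and 2.15-fold less than TSPCs-7d. Over the whole span, TSPCs-56d had 3.72-fold and 5.34-fold less than TSPCs-1d. The probe sets differed by 0.32, 0.20 and 0.52 in log2 ratio in these comparisons, less than the size of each log2 ratio. A probe set lower by over 2-fold at each step of age was found 29 times on the array (0.0934%), and 1 of the 14 described here (1368144_at) was among them. The brighter probe set of *Rgs2*, at 1.99-fold and 1.87-fold, was not. As the genes were chosen by these same signals, nothing is read from this count. In RNA from whole cultures, fewer cells that express a gene and less of its RNA per cell cannot be told apart.

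*Rgs4*, which acts on Gi and Gq and is best known from neurons and the heart, was highest in TSPCs-1d in both probe sets. Its probe set of higher signal (1368505_at) had 355 at day 1, 53.1 at day 7 and 51.9 at day 56. The signal was thus 6.70-fold lower in TSPCs-7d and 6.85-fold lower in TSPCs-56d than in TSPCs-1d. Both older cultures lay just above the dim level of 48.9, against which the signal of TSPCs-1d was 7.27-fold, so that these folds are near the widest that could be read. The second probe set (1368506_at) had the same order with far smaller steps, at 106, 66.1 and 59.3, every one under the median of the array. It was 1.60-fold lower in TSPCs-7d and 1.79-fold lower in TSPCs-56d than in TSPCs-1d. The probe sets differed by 2.06 in log2 ratio for TSPCs-7d over TSPCs-1d, which is beyond the 0.39 exceeded by 10% of pairs of probe sets. The direction against TSPCs-1d was shared and the size was not. TSPCs-56d and TSPCs-7d could not be told apart for this gene, with log2 ratios of -0.03 and -0.16.

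*Rgs5*, a gene commonly used to mark pericytes, was near or under the dim level in all cultures, with signals of 58.6 at day 1, 36.6 at day 7 and 41.2 at day 56. With the dim signals raised, TSPCs-7d and TSPCs-56d had at least 1.20-fold less than TSPCs-1d, and no order could be read between them. *Rgs5* and *Rgs4* are direct neighbours in the RefSeq annotation, with 0 protein-coding genes between them. Both had their highest signal in TSPCs-1d. With dim signals raised, the log2 ratio of *Rgs5* against TSPCs-1d was -0.26 in both older cultures, which did not exceed the guide. No shared course is read from this.

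*Rgs16*, a regulator of Gi and Gq that is induced in activated immune cells, was lowest in TSPCs-7d. Its signals were 2469 at day 1, 1714 at day 7 and 2755 at day 56. The log2 ratio was -0.53 for TSPCs-7d over TSPCs-1d and 0.68 for TSPCs-56d over TSPCs-7d, both wider than those that 10% of pairs of probe sets exceeded. Between TSPCs-56d and TSPCs-1d the log2 ratio was 0.16, within that range. Its neighbour on the chromosome, *Rgs8*, was close to the dim level at all ages, with signals of 59.8, 58.8 and 57.7.

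*Rgs3*, an R4 gene with long and short isoforms, had the same course with smaller steps in its probe set of highest signal (1367957_at), at 1613 at day 1, 1236 at day 7 and 1639 at day 56. The log2 ratios of -0.38 for TSPCs-7d over TSPCs-1d and 0.41 for TSPCs-56d over TSPCs-7d did not exceed the guide. Both other probe sets had every signal under the median of the array. They gave 69.9, 54.4 and 57.2 (1374528_at), and 52.55, 53.9 and 71.6 (1376803_at), and put the cultures in different orders. No order of ages can be read from this gene over all its probe sets.

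**Figure D1:**
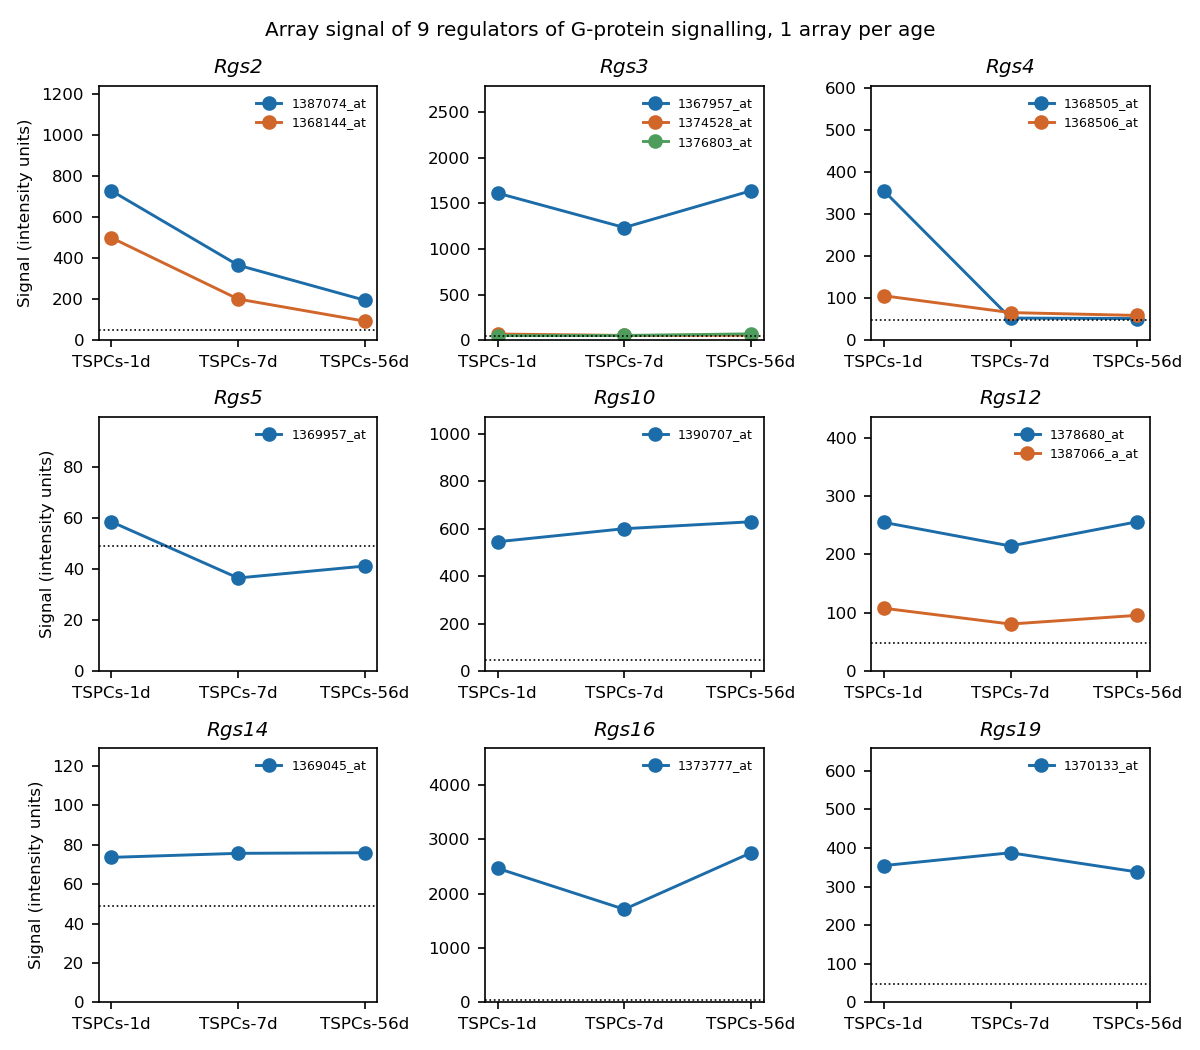
Array signal (intensity units, linear axes from 0) of the 9 genes by age (TSPCs-1d, TSPCs-7d, TSPCs-56d), 1 point per array and 1 line per probe set, with a dotted line at the dim level of 48.9. Both probe sets of Rgs2 step down with age, 1 probe set of Rgs4 is at 355 in TSPCs-1d and near the dotted line in the others, and Rgs16 is lowest in TSPCs-7d (1714).

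The genes of the R12 and RZ subfamilies among the 9 stayed close to level. *Rgs10*, a short protein that acts on Gi, had signals of 546 at day 1, 600.4 at day 7 and 629.6 at day 56, with log2 ratios of 0.14, 0.07 and 0.21 in the 3 comparisons. *Rgs12* encodes a large scaffold that also binds Ras and inactive Gi. It gave 255, 215 and 256 in one probe set (1378680_at) and 108, 81.05 and 95.9 in the other (1387066_a_at), lowest in TSPCs-7d in both. Its log2 ratios for TSPCs-7d over TSPCs-1d were -0.25 and -0.41, on either side of the 0.39 of the guide. *Rgs14*, a relative of *Rgs12* that also binds Ras proteins and inactive Gi, had 73.55, 75.6 and 75.9, every one under the median of the array. *Rgs19*, which acts on Gi subunits at membranes of the secretory pathway, had 354, 387 and 338. For *Rgs10*, *Rgs14* and *Rgs19* no pair of ages differed by more than the guide.

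Counted over the 14 probe sets, 2 were more than 2-fold lower and 0 higher at day 7 than at day 1, where 0.989% of all probe sets were lower and 1.36% higher. These were 1 probe set each of *Rgs2* and *Rgs4*. In TSPCs-56d against TSPCs-7d, 1 was lower (*Rgs2*) and 0 higher, beside 1.68% lower and 1.31% higher on the whole array. In TSPCs-56d against TSPCs-1d, 3 were lower and 0 higher, beside 1.8% and 1.52%. The 3 were both probe sets of *Rgs2* and 1 of *Rgs4*. As the genes were chosen on these contrasts, nothing is read from the counts. The median log2 ratio over the 14 was -0.40 for TSPCs-7d over TSPCs-1d, 0.07 for TSPCs-56d over TSPCs-7d and -0.12 for TSPCs-56d over TSPCs-1d. The lowest signal was at day 7 in 6 of the 14, at day 56 in 5 and at day 1 in 3. In 8 of the 14 the highest signal was less than 1.5-fold the lowest. The shares of all probe sets were not counted for the age of the lowest signal or this range. Nothing is read from these counts either.

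Beyond these 9 genes, 8 others of the RGS family had a probe set of their own. *Rgs17*, an RZ gene that acts on Gz and Gi, was lower in TSPCs-56d in all 5 of its probe sets. The brightest (1391075_at) had signals of 441 at day 1, 492 at day 7 and 303 at day 56. The next (1398483_at) had 229, 269 and 94.7, which is 2.84-fold lower in TSPCs-56d than in TSPCs-7d. The third (1394280_at) had 143, 176 and 96.8. In the remaining pair, the signals were 80.8, 92.0 and 36.1 (1394600_at) and 66.7, 66.8 and 33.0 (1380003_at), dim in TSPCs-56d. With dim signals raised, the 5 probe sets were 1.37-fold to 2.84-fold lower in TSPCs-56d than in TSPCs-7d, and 1 of them passed the cutoff. Its course thus differed from that of *Rgs2* and *Rgs4*: TSPCs-7d was not below TSPCs-1d in any of the 5, with ratios between 1.00 and 1.23.

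*Rgs7*, an R7 gene of neurons whose product pairs with the subunit Gβ5, had signals of 42.2, 36.1 and 79.8, and TSPCs-56d had at least 1.63-fold more than both younger cultures. The membrane anchor of R7 proteins, *Rgs7bp*, had 158, 161 and 287, with log2 ratios of 0.83 for TSPCs-56d over TSPCs-7d and 0.86 for TSPCs-56d over TSPCs-1d. *Gnb5*, the gene of Gβ5, had 456, 379 and 422, with log2 ratios of 0.16 and -0.11 in these comparisons. *Rgs9*, another R7 gene, had 254, 239 and 278 in its brighter probe set. *Rgs1*, *Rgs6*, *Rgs8*, *Rgs18* and *Rgs22* had every signal under the median of the array. Counted by the probe set of highest signal and with dim signals raised, 0 of these 8 genes passed 2-fold in any comparison. Of all 14217 genes, between 0.802% and 1.71% passed in each direction of a comparison. As 6 of the 8 had every signal under the median, nothing is read from this count. *Rgs1* and *Rgs18* lie within 3 protein-coding genes of *Rgs2*. *Rgs1* was dim in all cultures (28.9, 29.0 and 33.75), so no course could be read from it, and *Rgs18* was at or near the dim level (39.7, 51.9 and 53.0).

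**Figure D2:**
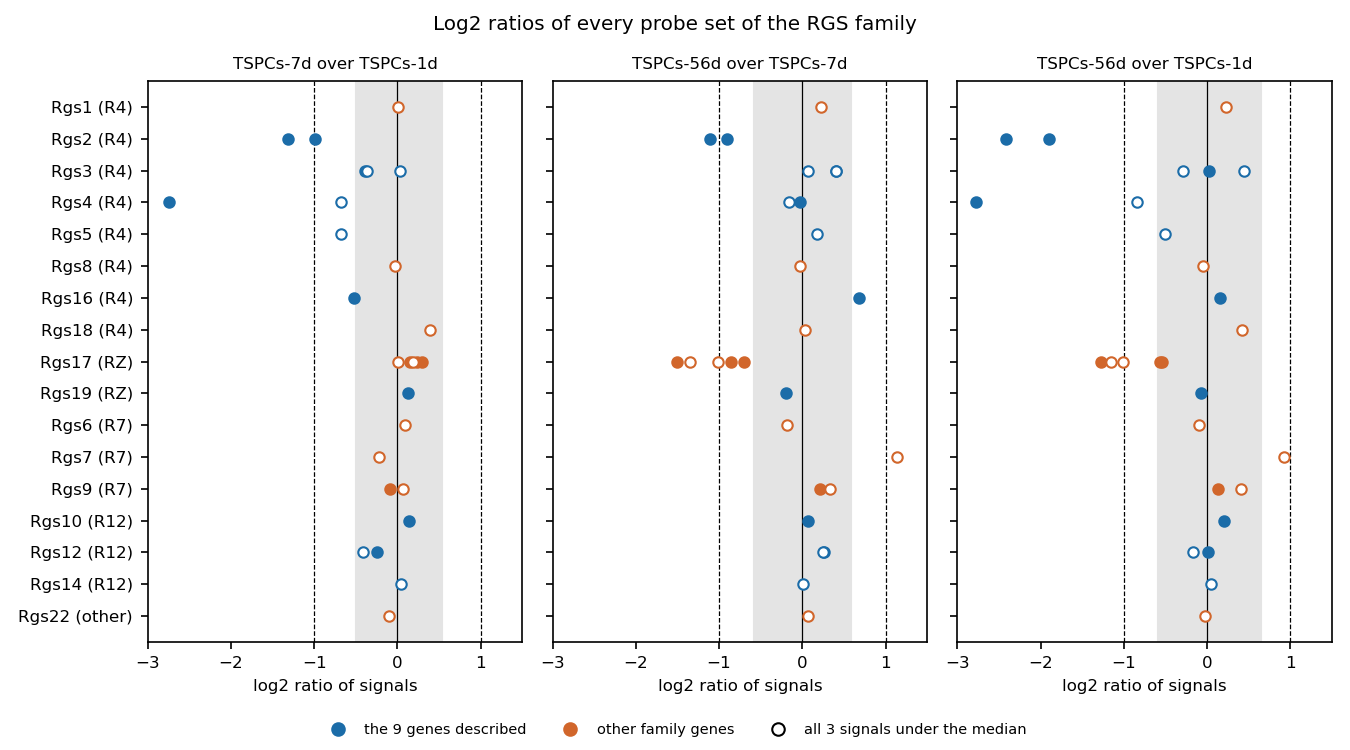
Log2 ratio of signals (horizontal) of each probe set (1 point) of 17 RGS genes, by gene and subfamily, in 3 comparisons of arrays, with the 5th to 95th percentile of all probe sets in grey, dashed lines at 2-fold, and open points where all 3 signals lie under the median. Rgs2 and Rgs4 lie to the left in TSPCs-7d and TSPCs-56d over TSPCs-1d, and all 5 probe sets of Rgs17 lie to the left in both comparisons of TSPCs-56d.

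The genes nearest in pattern to *Rgs2*, *Rgs4* and *Rgs16* were taken as those with the smallest Euclidean distance over the 3 centred log2 signals, among 9382 genes above the median of mean signals. For *Rgs2* they were the transporter gene *Slc16a12* (distance 0.11), *Pln*, which encodes the calcium pump regulator phospholamban (0.18), and *Areg*, which encodes the growth factor amphiregulin (0.23). The signals of *Pln* were 5884 at day 1, 2729 at day 7 and 1321 at day 56, and those of *Slc16a12* were 409, 185 and 106. Within 0.2 of *Rgs2* lay 2 genes. For *Rgs4* they were the iron oxidase gene *Heph* (0.39), the glutathione transferase gene *Gsta4* (0.40) and the tubulin-binding gene *Tppp* (0.59), with 0 genes within 0.2. *Heph* had signals of 451, 91.6 and 63.2, and *Gsta4* 889, 195 and 171. *Rgs16* had 171 genes within 0.2, and *Cnnm2*, *Lrrc8d* and *Gla* were the nearest. A fixed distance takes in fewer genes where the ratios are wide, so these counts do not show which course is rare or common. Each gene was taken by its probe set of highest signal, which for *Rgs4* had far wider steps than the other. No nearest genes are given for *Rgs5*, as its signals in both older cultures were dim. With 3 arrays, such a distance compares 2 steps and describes likeness of signal only.

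**Figure D3:**
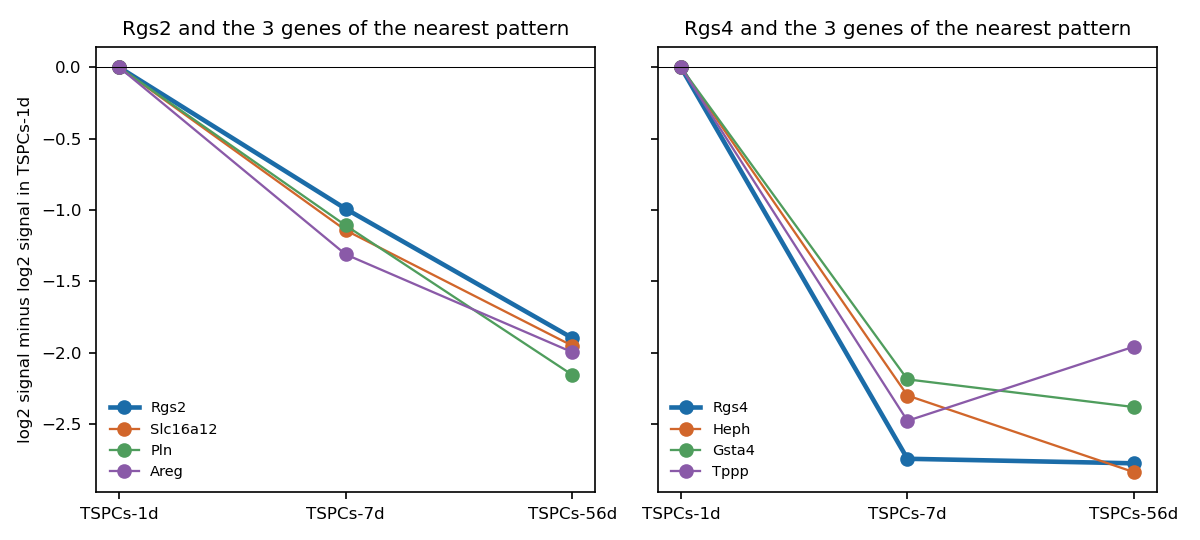
Log2 signal minus that in TSPCs-1d (vertical) at each age (TSPCs-1d, TSPCs-7d, TSPCs-56d), 1 point per array, of the brighter probe set of Rgs2 (left) and Rgs4 (right) and of the 3 genes nearest to each, with lines to guide the eye. Slc16a12, Pln and Areg step down at both ages like Rgs2, whereas Heph, Gsta4 and Tppp are high in TSPCs-1d and far lower in both older cultures.

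The receptors upstream of these proteins were covered by a list of 47 measured genes, each by its probe set of highest signal, with dim signals raised to 48.9. In TSPCs-7d against TSPCs-1d, 3 were more than 2-fold lower and 0 higher, where 0.802% of all 14217 genes were lower and 1.7% higher. They were *Ackr3*, an atypical chemokine receptor that signals through arrestin (2.56-fold), *Adra2a*, a Gi-coupled adrenergic receptor (2.30-fold), and *S1pr1*, a Gi-coupled sphingosine phosphate receptor (2.07-fold). The weaker probe sets of *Adra2a* and *S1pr1* had log2 ratios of 0.35 and -0.20. In TSPCs-56d against TSPCs-7d, 2 receptor genes were higher (1.32% of all genes) and 1 lower (1.71%). The higher ones were the adenosine receptor gene *Adora2b* (3.43-fold) and *Ackr3* (3.09-fold), and the lower one was the lysophosphatidic acid receptor gene *Lpar3* (at least 2.84-fold). In TSPCs-56d against TSPCs-1d, 3 were higher (1.65% of all genes) and 2 lower (1.37%). *Adora2b* was 3.84-fold, *Lpar1* 2.09-fold and the angiotensin receptor gene *Agtr2* 2.06-fold higher, while *Adra2a* was at least 4.25-fold and *Lpar3* at least 3.76-fold lower. The other probe set of *Lpar1* gave a log2 ratio of 1.05 and that of *Adra2a* 0.14, while that of *Agtr2* was dim in every culture (31.9, 32.7 and 43.1) and gave no ratio. As with *Rgs2*, the brighter probe set of *Adra2a* stepped down with age, at 208, 90.2 and 42.0. With dim signals raised, the median log2 ratios of the receptor list were 0.00, 0.05 and 0.03 in the 3 comparisons, beside 0.00, 0.00 and 0.00 over all genes. With signals as deposited they were -0.14, 0.17 and 0.12, beside 0.01, 0.05 and 0.06.

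Genes of the G proteins themselves seldom passed 2-fold, as was so for all genes. The counts of this and the next paragraph, also with dim signals raised, stand beside the shares of all genes, which were 1.7% higher and 0.802% lower for TSPCs-7d over TSPCs-1d, 1.32% and 1.71% for TSPCs-56d over TSPCs-7d, and 1.65% and 1.37% for TSPCs-56d over TSPCs-1d. Of 14 measured alpha subunits, 0 passed 2-fold in any comparison, with median log2 ratios of 0.10, 0.04 and 0.05. Every signal was under the median in 7 of the 14, and 3 were dim in every culture, so that they gave no ratio. *Gnaq*, a Gq subunit, was close to the dim level at 51.95, 56.8 and 55.7. *Gnai2*, a Gi subunit, had signals of 5795 at day 1, 5803 at day 7 and 5795 at day 56, and *Gnas*, the stimulatory subunit, had 8907, 8578 and 8926. Of 15 beta and gamma subunits, 1 was higher at day 56 than at day 7 (*Gng8*, 2.06-fold) and 0 passed in the other comparisons (medians 0.00, 0.05 and 0.05). Among 8 receptor kinases and arrestins, *Grk5*, a kinase that marks active receptors for arrestin, was the one that passed, with signals of 161 at day 1, 164 at day 7 and 467 at day 56. TSPCs-56d had 2.86-fold more than TSPCs-7d and 2.90-fold more than TSPCs-1d. The other 7 did not pass, and the medians were 0.02, 0.00 and 0.00. Of 12 partners and other G-protein regulators, *Gpsm2*, which binds inactive Gi at the mitotic spindle, was 2.08-fold lower at day 56 than at day 7, and *Axin2*, a Wnt target with an RGS domain, was 2.04-fold higher at day 56 than at day 1 (medians 0.07, 0.15 and 0.08). Of 18 effectors, 1 passed: the adenylyl cyclase gene *Adcy5* had 2.47-fold more at day 56 than at day 7, while its second probe set was dim in every culture (medians -0.12, 0.12 and 0.09).

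Genes that are induced by cAMP or calcium differed from each other in their course over the cultures. Of 14 measured, 3 were more than 2-fold lower and 0 higher at day 7 than at day 1, where 0.802% of all genes were lower, and the same 3 were lower in TSPCs-56d against TSPCs-1d (1.37% of all genes). *Rcan1*, a calcineurin regulator induced by calcium, was 2.84-fold lower in TSPCs-7d and 2.63-fold lower in TSPCs-56d, with signals of 1219.9 at day 1, 429 at day 7 and 464 at day 56. *Crem*, a cAMP-responsive transcription factor gene, was 2.21-fold and 2.12-fold lower, and 4 of its 5 other probe sets had log2 ratios between -1.27 and -0.59 for TSPCs-7d over TSPCs-1d. *Areg* was 2.48-fold and 3.99-fold lower. In TSPCs-56d against TSPCs-7d, 1 was higher (*Nr4a1*, 2.74-fold, beside 1.32% of all genes) and 0 lower. In their brightest probe sets, *Pde4b* (531, 922 and 1037) and *Nr4a2* (206, 284 and 389) stepped up with age without passing 2-fold. The other probe set of *Pde4b* gave a log2 ratio of 1.13 for TSPCs-56d over TSPCs-1d. The medians of this list were -0.37, 0.19 and 0.16. *Per1*, a clock gene of the list, had 504 at day 1, 561 at day 7 and 688 at day 56, with a log2 ratio of 0.45 for TSPCs-56d over TSPCs-1d, which did not exceed the guide.

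**Figure D4:**
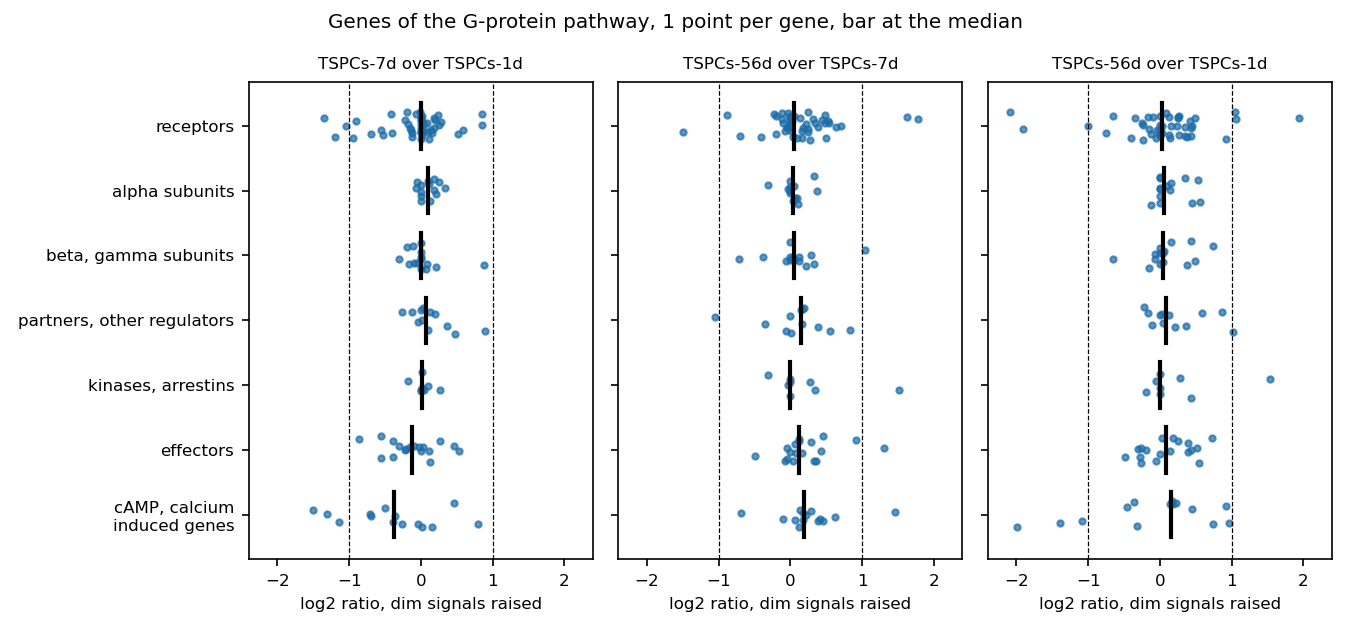
Log2 ratio of signals (horizontal, with dim signals raised to 48.9) of the genes of 7 lists of the G-protein pathway, 1 point per gene by its probe set of highest signal, with a black bar at each median and dashed lines at 2-fold. The medians lie between -0.37 and 0.19, and the point farthest from 0 is *Adra2a* in TSPCs-56d over TSPCs-1d (at least 4.25-fold lower).

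The cell type labels were checked against marker genes. All 9 measured tendon markers had signals above the median of the array in at least 1 culture, among them the transcription factor gene *Scx* (2255, 2578 and 2569) and *Tnmd*, a tendon membrane protein (543, 351 and 158). *Tnmd* was 2.23-fold lower in TSPCs-56d than in TSPCs-7d and 3.44-fold lower than in TSPCs-1d. Among the other tendon markers, the matrix genes *Thbs4* (76.5, 340 and 348) and *Fmod* (271, 774 and 408) were 4.44-fold and 2.85-fold higher at day 7 against day 1, and *Thbs4* and *Tnc* were 4.55-fold and 2.12-fold higher at day 56 against day 1. Their part in the differences of *Rgs2* and *Rgs4* was not tested. The summed signal of 5 stem cell surface markers ranged from 15895 to 18779, and *Itgb1* and *Thy1* made most of it. *Nt5e*, with 41.9, 49.3 and 110, had at least 2.25-fold more at day 56 than at day 1. Pericyte and smooth muscle markers are of interest beside *Rgs5* and *Rgs4*. Their summed signal over 11 genes was 37019 at day 1, 30003 at day 7 and 39240 at day 56. Such a sum follows the brightest probe sets, here those of the contractile genes *Tagln*, *Acta2* and *Cnn1*, which made most of it in every culture. Of the single genes, *Mcam* was lower at day 7 (2.35-fold) and at day 56 (2.35-fold) than at day 1, and *Myh11* was higher at day 56 than at day 7 (3.03-fold) and at day 1 (2.32-fold). The weaker probe set of *Myh11* was 1.31-fold and 1.82-fold higher at day 56, under the cutoff. *Mcam*, an adhesion molecule of pericytes, had 2182 at day 1, 930.0 at day 7 and 927 at day 56, and its part in the difference of *Rgs4* was not tested. Of the same list, *Pdgfrb* (1464, 1280 and 1463) and *Cspg4* (793, 659 and 622) did not pass 2-fold in any comparison. The channel genes *Kcnj8* (53.2, 44.8 and 35.5) and *Abcc9* (44.95, 50.4 and 64.6), which mark pericytes, were at or near the dim level. All 6 endothelial markers lay under the median in every culture, and *Ptprc*, the defining marker of blood cells, was dim (20.8, 24.96 and 30.6). Of 5 blood and macrophage markers, 3 lay under the median in every culture. *Cd14* (162, 157 and 155) lay above it in every culture, and *Cd68* (122, 109 and 143) at day 1 and day 56. The summed signal of blood cell markers ranged from 399 to 440.0 over 5 genes. For skeletal muscle it was 1155 to 5625 over 5, of which *Acta1* made most. For cartilage it was 4870.0 to 12214 over 4. *Acan* made most of that sum, at 8588 at day 1, 8224 at day 7 and 2874 at day 56. For nerve it was 1143 to 1868 over 5. These included *Stmn2*, a gene of neurons, at 450 at day 1, 142 at day 7 and 286 at day 56.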

How the data were processed

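RNA of TSPCs-1d, TSPCs-7d and TSPCs-56d was hybridized to 3 Affymetrix Rat Genome 230 2.0 arrays, 1 per age. The deposited values are intensity signals on a linear scale, which the authors normalized and summarized with MAS5 and with RMA according to the methods, and with MAS5 alone according to the submitters' processing notes. How both were combined is not given in the sources used here, and detection calls were not used here. The signals were used without further scaling. Signals of a pair of arrays were divided by each other, and ratios over 2 or under 0.5 were counted, after the cutoff in the methods. No age has a replicate, so no test was made and no p-value is given. The 9 genes, the 16 lists of pathway and marker genes and the rule for named genes were chosen with earlier results of these data known. That rule took every probe set of the 9 genes, the other RGS genes, up to 4 genes per pathway list past 2-fold with dim signals raised (largest ratio first), the 3 genes nearest in pattern to *Rgs2*, *Rgs4*, *Rgs5* (left out, as it was dim at 2 ages) and *Rgs16*, and RGS genes that neighbour them in RefSeq. *Rgs1*, *Rgs18* and *Rgs8* are such neighbours. *S1pr1*, *Lpar1*, *Agtr2*, *Per1*, *Pde4b*, *Nr4a2*, *Gnai2*, *Gnaq*, *Gnb5*, *Rgs7bp* and all marker genes named were chosen after their values were seen. The platform's table gives 1 symbol to 20826 probe sets, several to 436 and none to 9780. Alternatives were scaling by the median, quantile normalization, a floor at the 25th percentile, a pseudocount of 32, filters on probe sets and cutoffs of 1.5 and 3. Each remaining probe set of a gene on its own was added after the data were seen. The calculation was tested on simulated data. Python 3.11.15, numpy 2.4.6, pandas 2.3.3 and matplotlib 3.10.9 were used.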

Additional observations from a re-analysis of the deposited data

How the results depend on the processing

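The counts of probe sets past the cutoff are small and turn on single probe sets of *Rgs2* and *Rgs4*. Of 75 counts and medians recomputed, 67 stayed within the margin (1.5 times for a count, and for a median the log2 difference that 68% of pairs of probe sets of a gene did not exceed) and 8 moved. For TSPCs-7d over TSPCs-1d, 2 probe sets were lower, but 3 with scaling by the median or quantile normalization, where the brighter probe set of *Rgs2* (1.99-fold as deposited) also passed, 1 with 1 probe set per gene, 5 at a cutoff of 1.5 and 1 at a cutoff of 3. For TSPCs-56d over TSPCs-7d, 1 was lower, but 0 with a pseudocount of 32, 0 with 1 probe set per gene, 2 at a cutoff of 1.5 and 0 at a cutoff of 3, and 1 was higher at a cutoff of 1.5 instead of 0. No direction turned under scaling by the median, quantile normalization or the floor for a ratio past 2-fold. For single genes, 143 of 165 values stayed within the margin. *Rgs4* for TSPCs-7d over TSPCs-1d had a log2 ratio of -2.74, against -2.19 with a pseudocount of 32, -1.71 as the mean of its probe sets and -0.68 in the weaker one. For TSPCs-56d over TSPCs-1d it had -2.78, against -2.21, -1.81 and -0.84. *Rgs2* had -0.99 and -1.90 in these comparisons and -1.31 and -2.42 in its weaker probe set. *Rgs5* had -0.68 for TSPCs-7d over TSPCs-1d, but -0.26 with dim signals raised. With signals as deposited, the mean over the probe sets of *Rgs17* was -1.09 for TSPCs-56d over TSPCs-7d, against -0.70 in the brightest. This mean includes 1394600_at and 1380003_at, which were dim in TSPCs-56d. With dim signals raised they were at least 1.88-fold and 1.37-fold lower, so the mean overstates what can be read. The cause of these differences between probe sets was not tested. No paired analysis was possible because each age has 1 array.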
